A study of Mus musculus with 7 samples.

Results

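Vkorc1l1 and Ggcx encode enzymes of the vitamin K cycle, and their mRNAs were examined among the RNA sites recovered with the RNA-binding protein HuR from CT26.WT mouse colon cancer cells. Members were chosen by gene name: every site that the deposited lists of the 3 HuR immunoprecipitations assign to either gene was taken. This gave 7 sites of 18072 in all, of which 4 came from list 1, 2 from list 2 and 1 from list 3, in 2 genes of the 6277 with any site. The genes were picked with these lists in view, so their folds and recurrence are given as a description, without a test.

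The samples of the series are CT26.WT cells, labelled WT in genotype, grown in RPMI1640 medium with serum and antibiotics. In RNA immunoprecipitation sequencing (RIP-seq), an antibody pulls a protein and its bound RNA from an extract and the RNA is sequenced; 3 samples used an antibody against endogenous HuR, 3 used control IgG and 1 is input total RNA. The data used here are a list of called sites for each HuR immunoprecipitation, with no IgG or input values. The labels do not say whether the immunoprecipitations came from separate cultures.

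Vitamin K in its reduced form is the cofactor of gamma-glutamyl carboxylase, the product of Ggcx, an enzyme of the endoplasmic reticulum that turns glutamate residues of secreted and membrane proteins into gamma-carboxyglutamate. Each round of carboxylation leaves vitamin K as its epoxide, and an epoxide reductase must return it to the reduced form. Mammals have a pair of such reductases, VKORC1, the target of warfarin, and its paralog VKORC1L1. HuR, encoded by Elavl1, binds U-rich and AU-rich stretches of mRNA and is best known for stabilising transcripts.

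Each site carries a fold enrichment, which is the peak caller's ratio of signal over a control that the sources used here do not name, and a score, the caller's p on a scale of minus 10 log10. Both are the authors' values from a single library and have no replicate error, so each site is ranked within its own list. Where genes are ordered below by the lowest of their best folds, values of different lists meet without rescaling, and the order is a description only. Lists 1, 2 and 3 held 4722, 5384 and 7966 sites with a median fold of 7.21, 6.41 and 8.38 and a median length of 176, 161 and 152 bases. Read depth is unknown. Site lists give no expression level, so the labelled cell type could not be checked from levels: a site was listed for 2 of 5 epithelial marker genes (Krt18 and Krt20), 2 of 3 mesenchymal ones (Col1a1 and Zeb1) and 0 of 2 immune ones.

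Vkorc1l1 had a single region, found at nearly the same bounds in lists 1 and 2 and absent from list 3. On mm39 the site of list 1 ran from 129970828 to 129971206 on chromosome 5, a length of 379 bases, and the site of list 2 ran from 129970824 to 129971206, a length of 383 bases. Their ends coincided and their starts differed by 4 bases. Both were assigned to transcript ENSMUST00000051758. Which exon or untranslated region they cover was not analysed here. Among the 821 pairs of overlapping sites between lists 1 and 2, 557 had the same start and end, and 97 (11.8%) shared the end with another start, as the Vkorc1l1 pair did.

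The enrichment at this site was near the top of each list that held it. In list 1 its fold was 44.1, rank 2 of 4722, below Col1a1 at 46.5 and above the next site at 38.8. In list 2 its fold was 28.4, rank 4 of 5384, between neighbours at 32.0 and 24.4. No other site in either list carried the same fold. The site was also longer than most: 23.9% of the sites in list 1 and 22.7% of those in list 2 were at least as long. Over the 1816 genes with a site in both lists, the lower of a gene's best folds was highest for Vkorc1l1, 28.4, with Cdc16 next at 16.1 and a median of 6.36. The share of genes at or above the Vkorc1l1 value was 0.0551%. Vkorc1l1 was also first among pairs of overlapping sites, where the next pair lay in Usp36, with a lower fold of 14.8 and a median of 5.97 over all pairs.

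**Figure D1:**
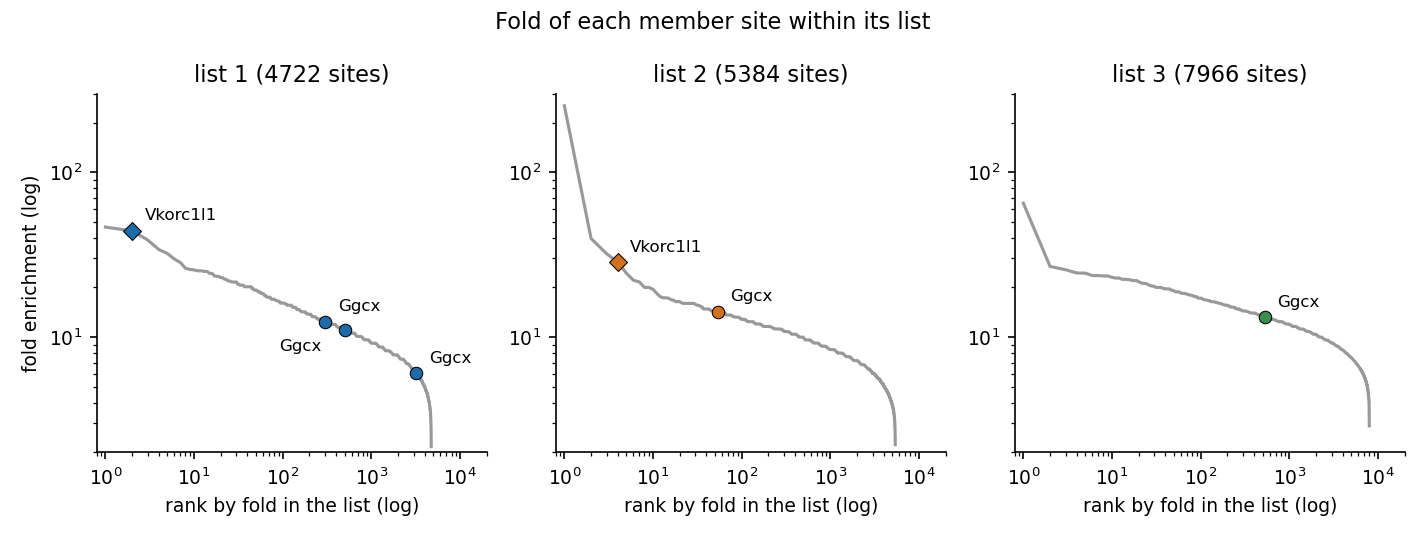
Fold enrichment of every site (grey line, log axis) against its rank in the list (log axis), with one panel per HuR immunoprecipitation; diamonds mark Vkorc1l1 and circles mark Ggcx. Vkorc1l1 sits at rank 2 in list 1 and rank 4 in list 2 and is missing from list 3, and the best Ggcx sites lie at ranks 303, 54 and 528.

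A gene with sites in lists 1 and 2 and none in list 3 was not unusual: 568 of 6277 genes (9.05%) had this pattern, and 282 of the 568 (49.6%) had a region shared by both lists. The sites of highest fold were compared between lists next. Of the 48 sites in the top 1% of list 1 by fold, 3 overlapped a site of list 2 (Vkorc1l1, Cdc37l1 and Unkl) and 6 overlapped a site of list 3; over all sites of list 1 the shares were 17.3% and 16.6%. Ranked by score instead, 7 of the top 48 overlapped list 2, Vkorc1l1 among them, and 3 overlapped list 3. From the side of list 2, 8 of the top 54 by fold (14.8%) and 11 of the top 54 by score (20.4%) overlapped list 1, Vkorc1l1 in both counts, beside 15.2% of all its sites. In list 3, where Vkorc1l1 is missing, 36.25% of the top 80 sites by score and 18.75% by fold overlapped list 2, beside 16.0% of all sites. Against list 1 the shares were 5% by score and 10% by fold, beside 9.79% of all sites of list 3. From the side of list 2, 16.7% of the top 54 by score and 20.4% by fold overlapped list 3, beside 23.8% of all its sites.

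The lists hold only part of the calls, and the site numbers run in order of position, so calls that were left out can be counted between listed sites. In list 3 the sites on either side of the Vkorc1l1 position were in Cct6a, ending at 129875212, and Asl, starting at 130042242. Between them, over 167 kb, 5 calls were numbered but not listed. Whether one of them covers the Vkorc1l1 site cannot be read from the list. In lists 1 and 2, 6 and 4 unlisted calls separated the Vkorc1l1 site from the listed site before it, in Psph and Cct6a. A further 4 and 3 separated it from the next listed site downstream, in Asl and Gusb.

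The caller's p was far below its limit at Vkorc1l1, while its false discovery rate (FDR, read here as percent) was high for the list. Scores were 974 in list 1 (rank 25) and 464 in list 2 (rank 48). The FDR was 18.99% and 14.37%, against list medians of 15.5% and 13.0%, and 99.5% of the sites in list 1 and 99.1% in list 2 had an FDR at or below it. In these lists the FDR was lowest at an intermediate score, 14.1% at a score of 262 in list 1 and 12.3% at 168 in list 2, and reached 39.0% and 39.4% at most. Vkorc1l1 lay on the rising side of that curve. In both lists its FDR and its score were higher than those of every Ggcx site of the same list.

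**Figure D2:**
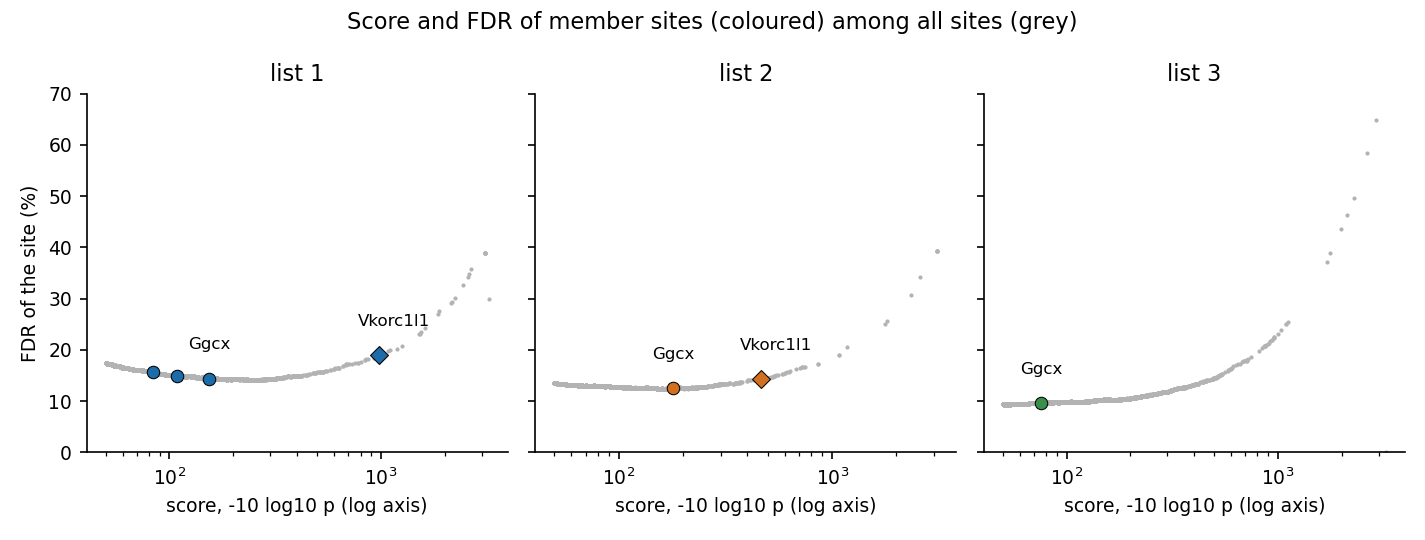
FDR of each site in percent against its score (log axis) in lists 1, 2 and 3; grey points are all sites, diamonds Vkorc1l1 and circles Ggcx. The Vkorc1l1 sites, at 18.99% and 14.37%, lie to the right of the lowest FDR of their lists. The Ggcx sites lie between 9.67% and 15.6% over the lists, and in list 1 their FDR rises from 14.41% to 15.6% as the score falls.

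Ggcx showed the opposite layout. It had 5 sites and at least 1 in every list, which 19.9% of the 6277 genes also had, and none of its sites overlapped another. All were assigned to transcript ENSMUST00000065906 on chromosome 6 (mm39), and RefSeq places the gene on the plus strand (GRCm38.p6), so the order of positions is the order from 5′ to 3′. Together they covered 1324 bases within a span of 8271. As many sites or more over the lists were held by 18% of genes, and 3 or more in list 1 by 7.36% of the genes in that list.

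Along the gene, from the 5′ side, each of the first 3 sites came from a different list. The first site, 72399399 to 72399477, came from list 1 and was 79 bases long, with a fold of 12.4 and a score of 153. It was short for its list, where 91.1% of sites were at least as long. The second, 72400917 to 72401023, came from list 3, with a length of 107 bases, a fold of 13.2 and a score of 75.8. The third, 72403344 to 72403609, came from list 2, with a length of 266 bases, a fold of 14.2 and a score of 180. Sites 4 and 5 were again from list 1. The former, 72404881 to 72405032, was 152 bases long with a fold of 11.02 and a score of 109. The latter, 72406950 to 72407669, was 720 bases long with a fold of 6.05 and a score of 83.6. The most 3′ site was thus the longest of the 5 and had the lowest fold, below the median of its list.

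**Figure D3:**
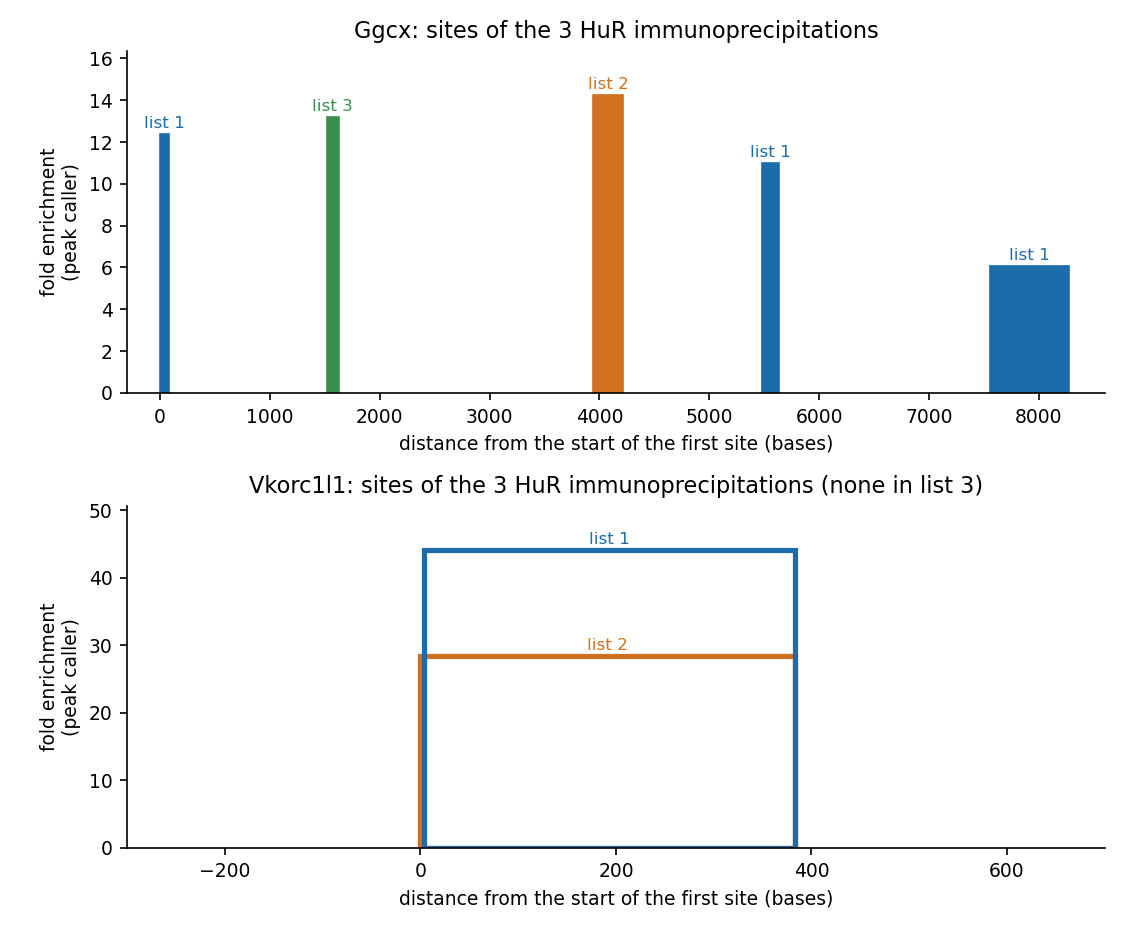
Sites of Ggcx (top) and Vkorc1l1 (bottom) as boxes, with distance in bases from the start of the first site on the x axis and the caller's fold on the y axis; colours give the list. The 5 Ggcx sites lie apart over 8271 bases, whereas the Vkorc1l1 sites of lists 1 and 2 cover the same 379 bases.

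The gaps between neighbouring Ggcx sites were 1439, 2320, 1271 and 1917 bases from the 5′ side, so sites of different lists came no closer than 1271 bases. For comparison, of the genes with a site in every list, 957 of 1248 (76.7%) had a region shared by at least 2 lists and 193 (15.5%) a region shared by all 3. Among the 291 without any overlap, the smallest distance between sites of different lists had a median of 2974 bases, and 25.8% of them were as close as Ggcx or closer. In list 1, 2 unlisted calls were numbered between the first Ggcx site and the site starting at 72404881. The Ggcx sites of lists 2 and 3 lie within that gap of 5403 bases. It is not known whether the unlisted calls of list 1 overlap them. No unlisted call fell between the last 2 Ggcx sites of list 1, as was the case for 56.1% of such neighbouring pairs within a gene in that list.

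By its best site in each list Ggcx had folds of 12.4, 14.2 and 13.2, which come from 3 different positions. The lowest of them, 12.4, ranked 4 of the 1248 genes with a site in every list, whose median was 6.27. At or above it were 0.321% of those genes, Ggcx included. A best fold is the highest among a gene's sites in a list, 3 for Ggcx in list 1, and the order makes no allowance for that number. The rank within a list differed: the list 2 site was at rank 54 of 5384, and those of lists 1 and 3 were at ranks 303 and 528. By score the list 3 site was ordinary, as 58.3% of the sites in that list scored at least as high. Several of these folds recurred exactly. The value of the first site was shared by 35 other sites of list 1, that of site 4 by 50 others and that of the list 3 site by 42 others, while the list 2 value was not repeated.

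All 7 sites of the 2 genes had a score of at least 70, against 67.4%, 62.6% and 65.6% of the sites in lists 1, 2 and 3. A score of 100, a setting chosen after the values were seen, kept both Vkorc1l1 sites and 3 of the 5 Ggcx sites. The list 3 site of Ggcx was lost, so Ggcx then remained in lists 1 and 2 alone. Loss from at least 1 list was the rule at that score: only 181 of 3814 genes (4.75%) kept a site in every list.

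Neighbouring genes were looked up as well. No site of another gene overlapped a member site in any list. In the RefSeq table (GRCm38.p6), Ggcx overlaps Mat2a, a gene for methionine adenosyltransferase on the opposite strand, where their 3′ ends meet. Mat2a had no listed site. Whether the most 3′ Ggcx site reaches the overlap on mm39 was not analysed here, and the sources used here do not say whether the libraries keep strand. Vkorc1l1 overlaps no gene in that table. Its neighbour Nupr1l had no site, and Gusb, on the other side, had 1, in list 2.

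By the pattern of best folds, the genes nearest to Ggcx with a site in every list were Lrch2, D16Ertd472e and Atm. Candidates numbered 1236 after 11 unnamed gene models (Gm and Rik symbols) were left out. The largest difference over the 3 lists was 0.06, 0.15 and 0.20 on the log2 scale. Lrch2 had folds of 12.9, 14.01 and 13.5, and Atm, whose product is a kinase activated by DNA breaks, had 11.5, 12.4 and 12.4. Atm, like Ggcx, had no region shared between lists, while Lrch2 and D16Ertd472e each had 1. For Vkorc1l1 the rule gave no gene, because it has no list 3 value. Compared over lists 1 and 2 with 555 other genes absent from list 3 (12 unnamed models left out), a step added after the values were seen, the nearest was Slc22a23, with folds of 20.7 and 14.4, still 1.09 away on the log2 scale.

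The other genes of vitamin K metabolism were then read from a list of 37. Of these, 8 had a site (21.6%), where 28.4% of the 21900 protein-coding genes of the RefSeq table had one, expressed or not. Sites were in every list for 2 of them, Ggcx and Nqo2, which is 25% of the 8 beside 19.9% of all genes with a site. By role, a site was listed for 4 of 7 genes for recycling and reduction, both genes for the carboxylase and its modulator, 1 of 12 for carboxylated proteins outside clotting, 0 of 7 for clotting and anticoagulant proteins, 0 of 6 for the formation and breakdown of menaquinone-4, and 1 of 3 for receptors of GAS6 and PROS1. These counts are a description; which of the 37 genes CT26.WT cells express is not known from the lists.

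Vkorc1, the paralog of Vkorc1l1 and the warfarin target, had no listed site. Nqo1, a quinone reductase gene, had a site in list 2 alone, on chromosome 8 from 108119480 to 108119644, with a fold of 10.4. Aifm2, which encodes the vitamin K reductase FSP1, had one in list 1 alone, on chromosome 10 from 61568102 to 61568210, with a fold of 9.18. Nqo2, a gene for a quinone reductase related to NQO1, had 4 sites on chromosome 13. In list 1 they ran from 34169710 to 34171038 with a fold of 4.7 and from 34171105 to 34171796 with a fold of 6.75. A site of 2804 bases in list 3, from 34169299 to 34172102, with a fold of 6.15, covered both. The list 2 site of Nqo2, from 34165408 to 34165521, lay apart and had a fold of 8.11. Nqo2 thus shared a region between lists 1 and 3, at folds below the median of each list, whereas Vkorc1l1 shared one between lists 1 and 2 at folds near the top.

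Calu, which encodes calumenin, an endoplasmic reticulum protein reported to inhibit the carboxylase in other cells, was listed in immunoprecipitation 3 alone, at folds of 4.62 and 6.4. Prrg2, a gene for a transmembrane protein with a carboxyglutamate domain, was listed in immunoprecipitation 2, where its fold was 6.51 and its score 59.7, under 70. Tyro3, a receptor tyrosine kinase gene, had a site in list 1 with a fold of 11.02. It was among the 50 other list 1 sites with the same fold as site 4 of Ggcx. Gas6, Pros1 and Mgp, which encode carboxylated proteins made outside the liver as well, had no listed site.

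**Figure D4:**
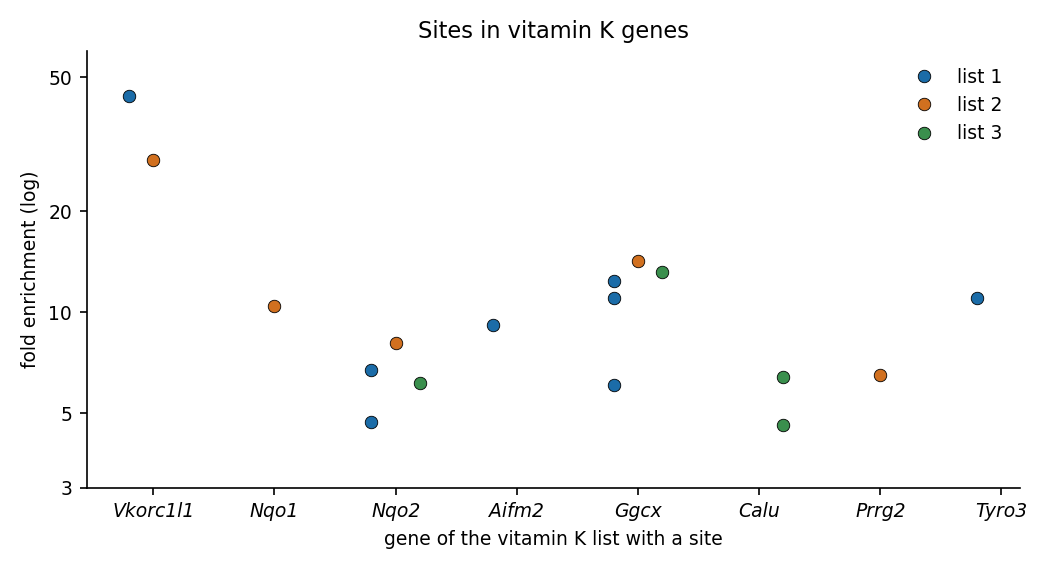
Fold enrichment (log axis) of every site in the 8 genes of the vitamin K list that had one; each point is a site and its colour gives the list. Vkorc1l1 lies highest, at 44.1 and 28.4, and Ggcx and Nqo2 are the genes with points in all 3 lists.

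The files annotate 5 genes with a site to the KEGG pathway of ubiquinone and other terpenoid-quinone biosynthesis, which also holds the vitamin K cycle: Ggcx, Vkorc1l1, Nqo1, Coq2 and Coq5. Of these 5, Ggcx was in every list; among all listed genes the share was 19.9%. Coq2, whose product attaches the isoprenoid tail of ubiquinone, had 4 sites, with best folds of 8.72 in list 1 and 6.8 in list 2. Coq5, a methyltransferase gene of the same route, had best folds of 6.71 in list 1 and 7.34 in list 3. Neither had a region shared between lists. This annotation was consulted after the values of the members were seen.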

How the data were processed

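The assay is RIP-seq of HuR in CT26.WT cells, with 3 HuR immunoprecipitations, 3 IgG immunoprecipitations and 1 input. Per the submitters' processing notes, FastQC, cutadapt 1.9.3, STAR and HISAT2 2.0.4 were used with mm39, with no role or order given; site names carry the MACS prefix, and its version, settings and control library are not stated there. Each immunoprecipitation has its own calls. Per the file headers, each site has a fold enrichment (ratio), a score (minus 10 times log10 of the p) and an FDR, deposited by the authors and read as percent from its range. The lists hold 13.4%, 14.5% and 20.0% of the numbered calls. A joined list was used only for an alternative count and for gene descriptions.

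Sites were grouped by the files' gene names. Starts were counted from 1. Sites of a gene were merged into a region when they overlapped by at least 1 base, a step tested on simulated data. No test was run: the members, the vitamin K list and the naming rule were chosen with earlier results of these data known. Named genes were the members, vitamin K genes with a site, Vkorc1, and for Ggcx the 3 genes with the nearest best folds. For Vkorc1l1 that rule gave no gene, and the nearest over lists 1 and 2, Slc22a23, was named by the added step. Genes named for rank, overlap or position, and Gas6, Pros1, Mgp, Coq2 and Coq5, were named after their values were seen. RefSeq tables of GRCm38.p6 served for names, strand and neighbours. The IgG and input samples were not used here. Python 3.11.15, pandas 2.3.3, numpy 2.4.6 and matplotlib 3.10.9 were used.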

Additional observations from a re-analysis of the deposited data

How the results depend on the processing

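Of 60 alternative values, 45 stayed within the limit set for a change (1.5 times for counts, 1 SD between lists for folds). This count is no measure of stability, as it includes values that could not move. It also takes as unchanged the fall of Ggcx from 3 lists to 2 at a score of at least 100. For Vkorc1l1 the SD, 11.07, came from 2 lists only. The joined list held 1 Vkorc1l1 site in place of 2, that of list 1; of the 818 list 2 sites that it lacks, 815 overlap a site of list 1. Requiring identical bounds left 0 shared Vkorc1l1 regions in place of 1, as the starts differ by 4 bases. A score of at least 100, chosen after the data were seen, left 3 of 5 Ggcx sites. At that score 181 of 3814 genes (4.75%) had a site in every list, with none of the vitamin K list among them. At a score of at least 70 the count was 600 of 5206 (11.5%), Ggcx and Nqo2 among them. Without a score limit it was 1248 of 6277 (19.9%). Ggcx had 0 shared regions under every overlap rule, score, fold and left-out list that was run. As no Ggcx sites overlap, removing sites or tightening the rule could give no other count. Only joining sites within 500 bases could have, and sites of different lists came no closer than 1271 bases. With each immunoprecipitation left out in turn there were 1 to 2 Vkorc1l1 sites in 1 to 2 lists, 0 to 1 shared Vkorc1l1 regions, a lowest Vkorc1l1 fold of 28.43 to 44.08, and 2 to 4 Ggcx sites. The shared Vkorc1l1 region was lost without immunoprecipitation 1 or 2. Genes with a site in all lists left then numbered 1816 to 2243. No paired analysis was possible because only sites of the HuR immunoprecipitations were used, with no value for IgG of the same number. Unknown depth and unlisted calls limit every statement that a site is absent.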
